A study of Drosophila melanogaster with 2 samples.

Results

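The heat shock genes described here are 6 small Hsp genes (Hsp22, Hsp23, Hsp26, Hsp27, Hsp67Ba and Hsp67Bc) and 4 larger chaperone genes (Hsp68, Hsp83, Hsp60 and Hsc70-4) of Drosophila melanogaster. They were chosen by name: every probe set whose gene symbol field held a member was taken, which gave 11 probe sets for the 10 genes, of 18952 probe sets and 12454 named genes on the array. Each of the 2 groups was 1 pool of 20 whole, feeding larvae in the middle of the third instar, labelled female and cultured for 6 days at 25 °C, and each pool was hybridised to 1 array. Ck1alphaRNAi larvae (Dcg-Gal4 X UAS-Ck1alphaRNAi) carried a hairpin against casein kinase 1 alpha, and control larvae (Dcg-Gal4 X w1118) carried the driver alone. Dcg-Gal4, which both groups carried, drives expression in fat body and blood cells, whereas the RNA came from whole animals. In the study's cultures, Ck1alphaRNAi crosses were started 1 day before the controls, and where the array pools followed that schedule, genotype and time in culture cannot be told apart. No heat treatment is described for either group.

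Heat shock proteins keep other proteins folded. The small Hsps carry an alpha-crystallin domain, bind unfolding proteins without using ATP and hold them until an ATP-driven chaperone of the Hsp70 family takes over. Hsp90 completes the folding of signalling proteins such as steroid receptors and kinases, and the Hsp60 chaperonin folds proteins inside mitochondria. In flies, heat induces most of these genes through heat shock factor, and several small Hsp genes are also switched on without heat by the moulting hormone ecdysone near the end of larval life.

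Of the small Hsp genes, 4 (Hsp26, Hsp27, Hsp23 and Hsp67Ba) gave lower signals in Ck1alphaRNAi larvae than in control larvae, by 1.70- to 2.53-fold. The remaining pair, Hsp22 and Hsp67Bc, gave 1.75-fold (on the brighter of the 2 Hsp22 probe sets) and 1.33-fold higher signals. Both Hsp22 probe sets also carry Hsp67Bb, and the dimmer was not higher, so that no direction is assigned to Hsp22. Of the chaperones, Hsp68 was 1.74-fold lower, while Hsp83, Hsp60 and Hsc70-4 differed by at most 1.16-fold. A single array per group leaves no replicate error and no test. The only error that could be measured is technical: among 435 genes with several detected probe sets, the log2 ratios of probe sets for the same gene had an SD of 0.41, or 1.33-fold.

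Hsp26 encodes a small Hsp of the cytosol and is known to be made in the fly germline as well as after heat. Its MAS5 signal, the linear brightness value summarised over the probes of a probe set, was 426 in Ck1alphaRNAi larvae and 1078 in the controls. The log2 ratio was -1.34, a 2.53-fold lower signal, and 308 of the 8884 detected genes lay at or below it. A gene was called detected where its signal reached 100 on at least 1 array. Hsp27, the small Hsp found mainly in nuclei, gave 982 in Ck1alphaRNAi larvae against 2241 in controls. Its log2 ratio of -1.19 made it 2.28-fold lower, with 409 genes at or below it. Hsp23, another small Hsp of the cytosol, gave 1402 in Ck1alphaRNAi larvae against 2759.9 in control larvae. At a log2 ratio of -0.98 it was 1.97-fold lower, just short of 2-fold. For these 3 genes the difference was larger than the SD between probe sets.

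Hsp67Ba, a less studied gene of the same cluster, gave 86.8 in Ck1alphaRNAi larvae and 148 in the controls. Its log2 ratio was -0.77, or 1.70-fold lower, and it moved to -0.43 when the arrays were adjusted for signal strength by loess. Hsp67Bc works with the cochaperone Starvin in clearing misfolded proteins by autophagy. It gave 189 in Ck1alphaRNAi larvae against 142 in controls, a log2 ratio of 0.41 that was no larger than the SD between probe sets.

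Hsp22, the small Hsp of mitochondria, could not be read alone. Both of its probe sets also carried the symbol of its neighbour Hsp67Bb, which overlaps it in the genome annotation. The brighter probe set gave 331 in Ck1alphaRNAi larvae and 189 in the controls, which was 1.75-fold higher, with a log2 ratio of 0.81. The dimmer one gave 179.9 in Ck1alphaRNAi larvae against 203 in controls, a ratio of 0.887 with a log2 ratio of -0.17. The pair thus lay on opposite sides of equality and 0.98 apart on the log2 scale, more than the SD given above. No direction can be assigned to Hsp22 from these values.

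**Figure D1:**
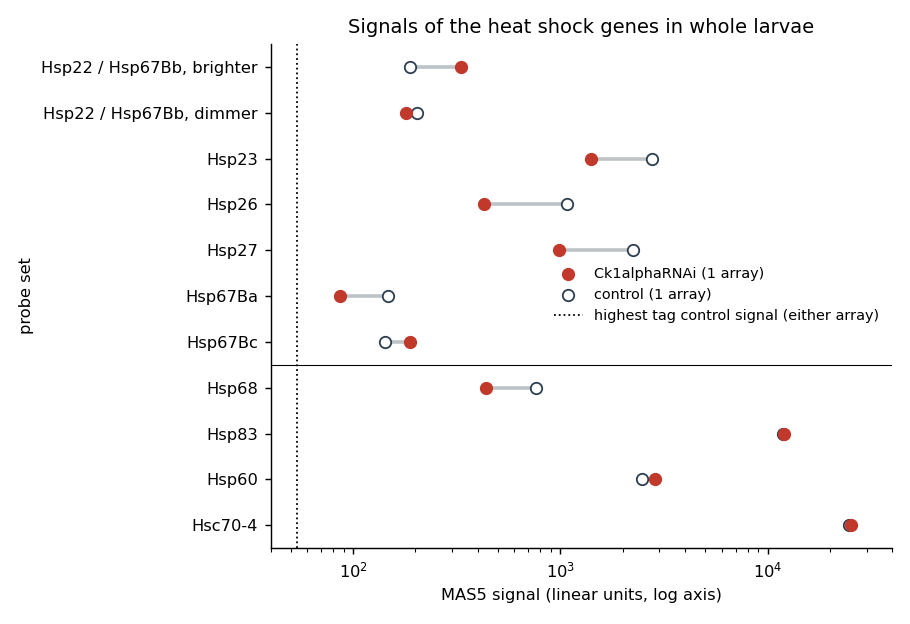
MAS5 signal (horizontal log axis, linear units) of each of the 11 heat shock probe sets, with the Ck1alphaRNAi array as filled red circles and the control array as open circles, 1 array each, and the highest signal of any tag control spot as a dotted line. The Ck1alphaRNAi circle lies left of the control circle for Hsp26, Hsp27, Hsp23, Hsp67Ba and Hsp68, and the circles nearly coincide for Hsp83 and Hsc70-4.

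Hsp68 is a heat-inducible relative of Hsp70. It gave 436 in Ck1alphaRNAi larvae and 761 in the controls, a log2 ratio of -0.80, or 1.74-fold lower, with 867 of the detected genes at or below it. Hsp83, the fly Hsp90, gave 11947 in Ck1alphaRNAi larvae against 11898 in controls, a log2 ratio of 0.01. Hsc70-4, the Hsp70 relative that every cell uses without stress, gave 25196 in Ck1alphaRNAi larvae and 24579 in the controls, a log2 ratio of 0.04. For Hsp83 and Hsc70-4 the sign of the log2 ratio turned under quantile normalization and under loess, with sizes of at most 0.08. Hsp60, the mitochondrial chaperonin now named Hsp60A, gave 2866 in Ck1alphaRNAi larvae against 2469 in controls, a log2 ratio of 0.21. The differences of Hsp83, Hsp60 and Hsc70-4 were below the SD between probe sets, and that of Hsp68 was above it.

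By the 2-fold rule, 2 of the 6 small Hsp genes were lower, none was higher, and no chaperone passed in either direction. Among all 8884 detected genes, 609 (6.86%) were at least 2-fold lower and 251 (2.83%) at least 2-fold higher. At 1.5-fold, a threshold added after the values were seen, 4 of the 6 small Hsp genes and 1 of the 4 chaperones were lower. Only Hsp22 on its brighter probe set, shared with Hsp67Bb, was counted as higher, and its dimmer probe set was not higher. The same threshold called 14.3% of detected genes lower and 7.13% higher. The median log2 ratio was -0.87 over the 6 small Hsp genes, -0.98 over the 5 that have a probe set of their own, and 0.02 over the 4 chaperones, against -0.02 over all detected genes. All 10 members were detected. These counts describe 10 genes in 1 pair of pools, and no test stands behind them.

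**Figure D2:**
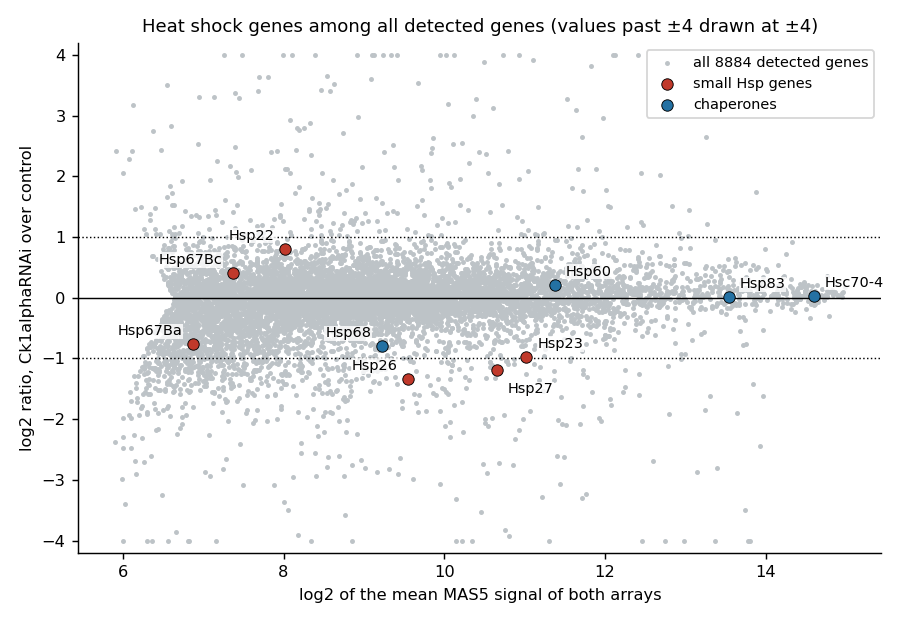
Log2 ratio of Ck1alphaRNAi over control (vertical axis) against the log2 of the mean MAS5 signal of both arrays (horizontal axis) for all 8884 detected genes in grey, with the small Hsp genes in red and the chaperones in blue; dotted lines mark 2-fold, and values past 4 in size are drawn at 4. Hsp26 and Hsp27 lie below the lower line and Hsp23 just above it, while Hsp83 and Hsc70-4 lie near 0.

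The small Hsp genes share a position: all 6 lie in 1 cluster at cytological band 67B on chromosome arm 3L. The chaperone genes are scattered, with Hsp83 elsewhere on 3L, Hsp68 and Hsc70-4 on 3R, and Hsp60 on X. In the RefSeq annotation the cluster holds 8 protein-coding genes, in the order Hsp67Bc, CG4456 (Hsp67Bb), Hsp22, CG4461, Hsp26, Hsp67Ba, Hsp23 and Hsp27. The 4 genes with lower signals were the 4 neighbours at one end, from Hsp26 to Hsp27, and Hsp67Bc and the Hsp22 probe sets lay at the other end. CG4461, an alpha-crystallin gene between them, gave 29.2 in Ck1alphaRNAi larvae and 31.2 in the controls, both under background, taken as the highest tag control of their array, so that it has no fold. The 4 protein-coding genes on each side of the cluster, chosen after the values were seen, had log2 ratios of -0.37 to 0.18 with a median of -0.02. On the side of Hsp27, CG4080 gave 745 in Ck1alphaRNAi larvae against 771 in controls, and eIF4E1, the cap-binding translation factor, gave 4742 in Ck1alphaRNAi larvae and 4185 in the controls. None of these neighbours differed by more than the SD between probe sets.

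**Figure D3:**
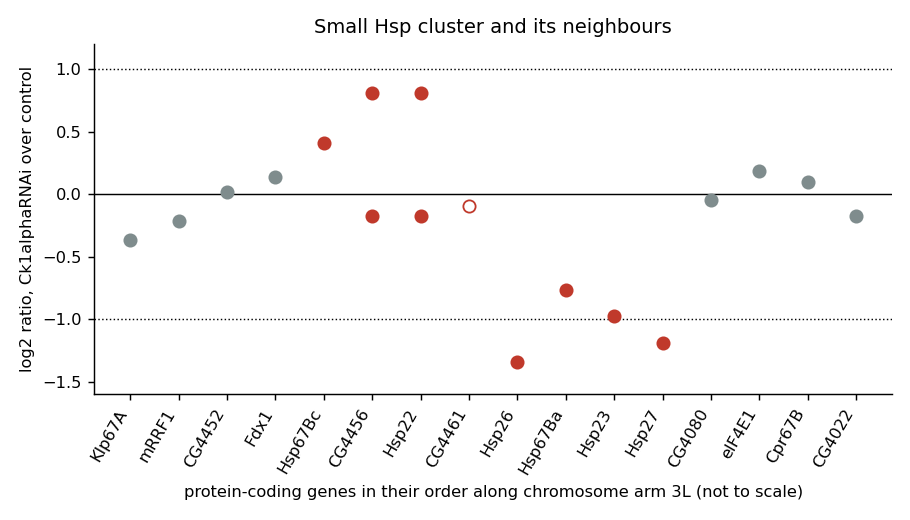
Log2 ratio of Ck1alphaRNAi over control (vertical axis) for the 8 genes of the small Hsp cluster in red and 4 neighbours on each side in grey, in their order along chromosome arm 3L and not to scale, with the shared Hsp22 and Hsp67Bb probe sets drawn at both genes and an open circle for CG4461, which was under background. Hsp26, Hsp67Ba, Hsp23 and Hsp27 stand next to each other between -1.34 and -0.77, and the neighbours outside the cluster lie between -0.37 and 0.18.

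Other genes of the small Hsp family outside the cluster were lower by less on the probe set that stands for each. CG14207 gave 3233 in Ck1alphaRNAi larvae against 4971 in controls, 1.54-fold lower. CG7409 gave 142 in Ck1alphaRNAi larvae and 178 in the controls, 1.25-fold lower. The gene l(2)efl, essential for life, had 3 probe sets that differed among themselves. The brightest gave 17850 in Ck1alphaRNAi larvae against 19799 in controls, the next 6824 in Ck1alphaRNAi larvae and 8835 in the controls, and the dimmest 54.2 in Ck1alphaRNAi larvae against 214 in controls. Only the dimmest passed 2-fold, at 3.95-fold lower, with a Ck1alphaRNAi signal close to the highest tag control of that array (53.3). CG13133, at 11.3 in Ck1alphaRNAi larvae and 8.14 in the controls, was under background. The median over the 3 detected genes was -0.32.

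The classical Hsp70 genes, which are nearly silent without heat, were read only by probe sets that carry several gene symbols, because the copies are almost identical. The probe set for Hsp70Aa and Hsp70Ab gave 208 in Ck1alphaRNAi larvae against 179 in controls, 1.17-fold higher. The brighter of the 2 probe sets for Hsp70Ba, Hsp70Bb, Hsp70Bbb and Hsp70Bc gave 134 in Ck1alphaRNAi larvae and 124 in the controls. The dimmer one, at 1.46 in Ck1alphaRNAi larvae against 17.1 in controls, was under background on both arrays, and a probe set for Hsp70Bb and Hsp70Bc gave 44.8 in Ck1alphaRNAi larvae, under background, and 39.1 in control larvae. A further probe set joined Hsp70Bb and Hsp70Bc with the unrelated gene CG31343. It gave 19093 in Ck1alphaRNAi larvae and 16908 in the controls. Its representative transcript is CG31343-RA, and it was not read as an Hsp70 signal. Where these heat-inducible genes could be read, their differences were smaller than the SD between probe sets.

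None of the 7 other detected Hsp70 family genes passed 2-fold, and their median log2 ratio was -0.26. Hsc70-2 gave 87.5 in Ck1alphaRNAi larvae against 164 in controls, 1.87-fold lower. Hsc70-1 gave 70.9 in Ck1alphaRNAi larvae and 133 in the controls on its brightest probe set, also 1.87-fold lower. Its other probe sets gave 62.3 in Ck1alphaRNAi larvae against 117 in control larvae, and 11.8, under background, in Ck1alphaRNAi larvae against 110.2 in control larvae, which is at least 2.07-fold lower when the dim signal is replaced by the highest tag control. Hsc70-2 and Hsc70-1 reached a signal of 100 only on the control array, so once detected they could only be lower in Ck1alphaRNAi larvae. The other members differed less. Hsc70-3, the Hsp70 of the endoplasmic reticulum also called BiP, gave 5522 in Ck1alphaRNAi larvae against 7142 in controls. Hsc70-5, the mitochondrial Hsp70, gave 4017 in Ck1alphaRNAi larvae and 4796 in the controls. Hsc70Cb, an Hsp110 exchange factor, gave 1368 in Ck1alphaRNAi larvae against 1362 in controls. CG2918, the fly Grp170, gave 1345 in Ck1alphaRNAi larvae and 1169 in the controls, and CG7182 gave 361 in Ck1alphaRNAi larvae against 365 in controls.

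The Hsp60 family was mixed. Against the nearly equal Hsp60, its paralogue Hsp60B, needed in flies for sperm formation, gave 76.4 in Ck1alphaRNAi larvae and 154 in the controls, 2.01-fold lower. A second probe set that Hsp60B shares with Ncc69 gave 181 in Ck1alphaRNAi larvae against 171 in controls. Its representative transcript, CG4357-RA, is not that of the first probe set, CG2830-RA, so it may not read Hsp60B. Hsp60C gave 292 in Ck1alphaRNAi larvae and 524 in the controls, 1.80-fold lower, and Hsp60D, which was not detected, 65.1 in Ck1alphaRNAi larvae against 96.6 in controls. The Hsp10 cochaperonin has a pair of genes that lay apart. CG11267 gave 2942 in Ck1alphaRNAi larvae and 2131 in the controls, 1.38-fold higher, whereas the Hsp10-like CG9920 gave 657 in Ck1alphaRNAi larvae against 1508 in controls, 2.30-fold lower. The other mitochondrial chaperones were close to equal: Trap1, the mitochondrial Hsp90, gave 502 in Ck1alphaRNAi larvae and 528 in the controls, Roe1, a GrpE exchange factor, gave 778 in Ck1alphaRNAi larvae against 783 in controls, and l(2)tid, a mitochondrial J protein, gave 582 in Ck1alphaRNAi larvae and 504 in the controls. CG9920 and Hsp60B were the 2 of 7 detected genes that passed 2-fold, both lower, and the median was -0.07. Of all detected genes, 6.86% were at least 2-fold lower and 2.83% at least 2-fold higher. Hsp60B reached a signal of 100 on the control array only.

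Cochaperones, which steer Hsp70 and Hsp90, gave no call at 2-fold among 13 detected genes, and their median log2 ratio was -0.13. The lowest were CG1416, an activator of the Hsp90 ATPase, at 1706 in Ck1alphaRNAi larvae against 2609 in controls (1.53-fold lower), and DnaJ-1, the Hsp40 partner of Hsp70, at 1873 in Ck1alphaRNAi larvae and 2687 in the controls (1.43-fold lower). The J proteins mrj and CG5001 were the highest, with log2 ratios of 0.26 and 0.22. Starvin (stv), the partner of Hsp67Bc, gave 1926 in Ck1alphaRNAi larvae against 1720.5 in controls. The cytosolic chaperonin CCT, which folds actin and tubulin, and its helper prefoldin lay on the other side of equality. Of 14 detected subunits 11 had higher signals in Ck1alphaRNAi larvae, none by 2-fold, with a median of 0.10, and 4241 of all 8884 detected genes had higher signals. CCT8 was the highest, at 2314 in Ck1alphaRNAi larvae and 1862 in the controls. A list of 9 housekeeping genes also had a median of 0.10.

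The transcription factor that drives the heat response, Hsf, gave 1061 in Ck1alphaRNAi larvae against 1570.4 in controls, 1.48-fold lower. Ubi-p63E, a heat-inducible polyubiquitin gene, gave 6029 in Ck1alphaRNAi larvae and 8649 in the controls, 1.43-fold lower. TotA, a Turandot peptide secreted under heat and other stress, had the lowest ratio of the 6 detected genes in this list of stress genes, at 1565 in Ck1alphaRNAi larvae against 6365 in controls, 4.07-fold lower. The others went the other way by less than 1.5-fold: Gadd45, a stress-inducible growth regulator, gave 189.6 in Ck1alphaRNAi larvae and 138 in the controls, and puc, a phosphatase that restrains JNK signalling, gave 1606 in Ck1alphaRNAi larvae against 1320.1 in controls. The median was -0.21.

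The deposited annotation assigns the Gene Ontology term response to heat to 9 of the 10 members, all but Hsc70-4. Over the 50 detected genes with this term, 5 were lower by 2-fold or more and none was higher, 68% had a lower signal in Ck1alphaRNAi larvae, and the median was -0.20. Of all detected genes, 6.86% were at least 2-fold lower and 52.3% had a lower signal. Hsp22, read only by shared probe sets, is not among the 50. With the other 8 members set aside, 42 genes remained, of which TotA, CG32727 and Hsp60B were lower by 2-fold or more, none was higher by 2-fold, and the median was -0.18. CG32727 gave 56.1 in Ck1alphaRNAi larvae and 118 in the controls. CG32727 and Hsp60B reached a signal of 100 only on the control array, so once detected they could only be lower in Ck1alphaRNAi larvae. As a share, 3 of 42 was close to the 6.86% of all detected genes that were at least 2-fold lower. The wider term protein folding, with 112 detected genes, had a median of -0.04 with 4 genes lower and none higher by 2-fold. The terms were chosen after the values were seen.

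**Figure D4:**
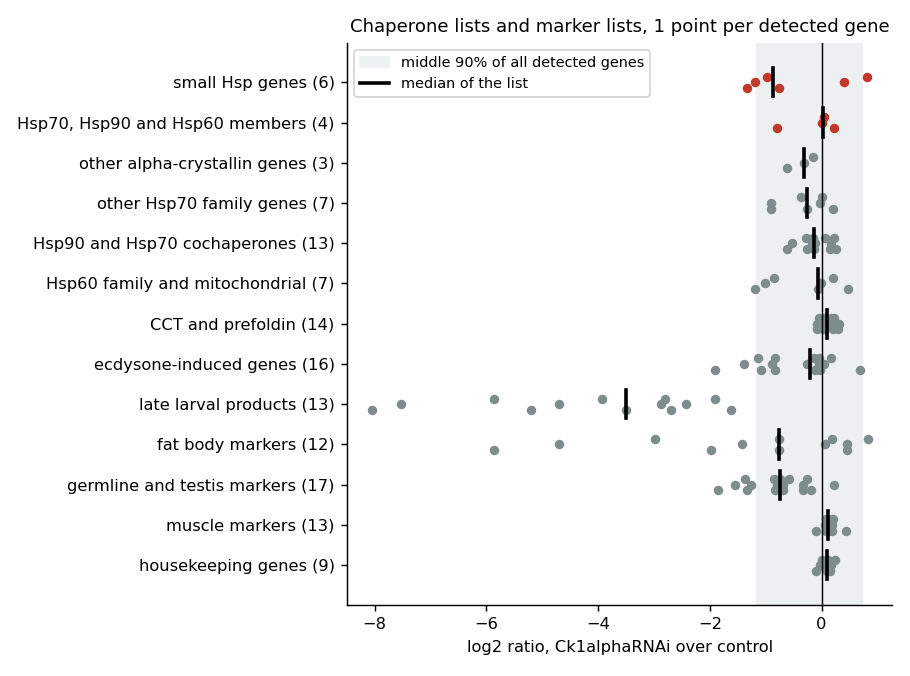
Log2 ratio of Ck1alphaRNAi over control (horizontal axis) for the detected genes of the heat shock groups in red and of other chaperone and marker lists in grey, 1 point per gene and the number of genes in brackets, with each list's median as a black bar and the middle 90% of all detected genes (-1.16 to 0.73) shaded. The medians lie at -0.87 for the small Hsp genes, at -0.74 for the germline and testis markers and at -3.50 for the late larval products, and those of the CCT, muscle and housekeeping lists just above 0.

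Several other properties of the larvae moved with the small Hsp signals, and their part in the result was not tested. The late larval products, such as glue and larval serum proteins, are made towards the end of the third instar. All 13 detected genes of this list were at least 2-fold lower in Ck1alphaRNAi larvae. Summed over all 14 measured genes, the signals were 28547 in Ck1alphaRNAi larvae against 229902 in controls. Of 16 detected ecdysone-induced genes, 13 were lower, 4 of them by at least 2-fold, against 52.3% and 6.86% of all detected genes. The ecdysone receptor gene EcR gave 307 in Ck1alphaRNAi larvae and 804 in the controls, 2.62-fold lower, and br, an early ecdysone-response transcription factor, gave 1138 in Ck1alphaRNAi larvae against 2413 in controls, 2.12-fold lower. ImpL2 was 2.21-fold and ImpE2 3.74-fold lower. The ecdysone-induced Eip71CD went the other way, at 1314 in Ck1alphaRNAi larvae and 811 in the controls, and the list's median of -0.20 was closer to 0 than that of the small Hsp genes.

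Germline and testis markers, of which 17 were detected, had a median of -0.74 with 5 at least 2-fold lower. Summed over all 28 measured markers, detected or not, the signals were 6310 in Ck1alphaRNAi larvae against 10146 in controls. Although the larvae are labelled female, the testis tubulin betaTub85D gave 612 in Ck1alphaRNAi larvae and 987 in the controls, well above background in both. Of the 17 detected markers, 16 were lower and 1 was higher. Among those of the germline, ovo gave 471 in Ck1alphaRNAi larvae and 761 in control larvae. Another, aub, gave 102 in Ck1alphaRNAi larvae and 128 in control larvae. The germline marker vas was under background on both arrays, at 13.7 in Ck1alphaRNAi larvae and 7.50 in control larvae, and nos was under it at 19.5 in Ck1alphaRNAi larvae and above it at 41.3 in control larvae. The 12 fat body markers had a median of -0.76, with 5 at least 2-fold lower, and 2 of the 12 are also among the late larval products. Without these 2, the median over 10 genes was -0.35, with 3 at least 2-fold lower. Over all 12 markers, the summed signals were 66952 in Ck1alphaRNAi larvae against 118435 in controls. Lsp2, among the 2 set aside, alone gave 475 in Ck1alphaRNAi larvae and 27757 in control larvae. Of 13 blood cell markers, 4 were at least 2-fold higher and none lower, and no muscle marker (median 0.12) or neuron marker (median 0.18) passed 2-fold. The 15 gut markers had a median of 0.18, with 4 at least 1.5-fold higher and none that much lower, and the digestive protease gene Jon44E was 3.35-fold higher, at 23191 in Ck1alphaRNAi larvae and 6917 in the controls. At 1.5-fold, 7.13% of all detected genes were higher and 14.3% lower. In RNA from whole larvae, fewer cells of a type and less RNA per cell cannot be told apart.

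The trimmed mean signal was 500.02 on both arrays, which the MAS5 scaling sets and which is no measure of their likeness. The median was 97.1 in Ck1alphaRNAi larvae and 116 in the controls, and the highest of 17 tag controls was 53.3 in Ck1alphaRNAi larvae against 33.1 in controls. All 11 heat shock probe sets lay above these on both arrays. The targeted gene CkIalpha gave 2055 in Ck1alphaRNAi larvae and 2665 in the controls, a ratio of 0.771 in whole animals. Its log2 ratio of -0.37 was smaller in size than the SD between probe sets.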

How the data were processed

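RNA from 2 pools of whole larvae was hybridised to Affymetrix Drosophila 2 arrays. The authors deposited MAS5 signals (MAS5 version 5 in the submitters' processing notes), a linear intensity per probe set scaled to a common trimmed mean, beside a column of fold changes that was not used. The value table of the series, also deposited, repeated these intensities. The extraction reagent differs between the sample labels and the study's methods, and the genome build of the probe annotation was not given in the sources used here.

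Signals were turned into log2 ratios (Ck1alphaRNAi over control) in Python 3.11.15, numpy 2.4.6 and pandas 2.3.3, with no further scaling. Of 18952 probe sets, 14219 had 1 gene symbol, 63 were assigned by transcript identifier, 778 named several genes and 3892 none; names were updated through RefSeq. A gene with several probe sets was represented by the brightest, on the mean of both arrays. A gene was detected at a signal of at least 100 on 1 array. A gene that passed on 1 array only therefore has its higher signal there. Where the dimmer signal was below the highest tag control of its array, that control took its place and the fold is a bound. On simulated data with 200 of 18952 probe sets changed 4-fold, 200 were recovered by the 2-fold rule. The changed probe sets were drawn from those with a mean signal above 100. The simulation does not cover smaller changes such as those of the heat shock genes.

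Named genes were all members with every probe set and all members of the small Hsp, Hsp70 and Hsp60 lists. From every other list, up to 4 with the largest log2 ratio and up to 2 going the other way could be named. A few beyond these (Starvin, for its tie to Hsp67Bc, and the genes around the cluster) were chosen after their values were seen. The germline and testis markers named here (betaTub85D, ovo, aub, vas and nos) also fall outside this rule and are not those with the largest log2 ratios. Members and lists were chosen with earlier results of these data known. Alternative settings covered a pseudocount of 16, scaling by the median, by quantiles or by loess, the value table, other rules for probe sets, other filters and a 1.5-fold threshold. With 1 array per group no p-value was computed, and the number of arrays limits the precision.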

Additional observations from a re-analysis of the deposited data

How the results depend on the processing

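No paired analysis was possible because each group had 1 array, and for the same reason no replicate could be left out. Under the alternatives 307 values were recomputed. Of these, 297 stayed within the spread between probe sets or within 1.5 times the count reported, and 10 did not. No difference beyond that spread changed direction. Part of this tally was fixed in advance. The value table repeats the same intensities, and a gene with 1 probe set keeps its value or drops out under the rules for probe sets. The tally is therefore no measure of how firm the results are. Taking the median of the probe sets of a gene put Hsp22 at a log2 ratio of 0.32 in place of 0.81, since its probe sets disagree. Leaving out shared probe sets moved the median of the chaperones to -0.40 in place of 0.02, since Hsp60 and Hsc70-4 drop out. At 1.5-fold, 1 small Hsp gene (Hsp22 on its brighter, shared probe set) was higher, 4 were lower and 1 chaperone was lower. Over all genes, 633 were higher and 1268 lower. Without a filter on signal, 732 genes were at least 2-fold higher and 1364 lower, and with a minimum of 200 the lower genes numbered 394. Under loess Hsp23 reached -1.02, past 2-fold, and 301 genes were higher and 420 lower by 2-fold (41.7% of calls higher), against 251 and 609 (29.2%) as reported. The log2 ratio of Hsp26 stayed between -1.35 and -1.31 and that of Hsp27 between -1.22 and -1.17. Hsp67Ba ranged from -0.77 to -0.43 and Hsp67Bc from 0.37 to 0.56, and the cause was not tested. A signal under the highest tag control allows at most a bound on a fold.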

Other observations

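The term response to stress, which 9 of the heat shock genes carry, also held genes that went the opposite way. With the heat shock genes set aside, 3 of its 32 detected genes were at least 2-fold higher in Ck1alphaRNAi larvae and none was 2-fold lower. By the same 2-fold rule, 2.83% of all detected genes counted as higher and 6.86% as lower. Among only 32 genes, the lack of a lower one therefore carries little weight. All 3 higher genes encode relatives of the lifespan receptor Methuselah, a G protein-coupled receptor. The gene mthl2 gave 692 in Ck1alphaRNAi larvae and 55.0 in control larvae, 12.6-fold higher. The gene mthl4 gave 1879.9 in Ck1alphaRNAi larvae and 325 in control larvae, 5.78-fold higher, and mthl3 gave 1843 in Ck1alphaRNAi larvae and 674 in control larvae, 2.73-fold higher.

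Among protein folding genes outside the lists, the lowest were CG7768, a cyclophilin, at 490.1 in Ck1alphaRNAi larvae and 1320.3 in control larvae, and TrxT, the testis thioredoxin, at 549 in Ck1alphaRNAi larvae and 1385 in control larvae. They were 2.69-fold and 2.52-fold lower.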
